A study of Homo sapiens with 4 samples.

Results

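The 39 genes described here belong to the NRF2, glutathione and antioxidant systems of human cells. They were chosen by symbol, and all 39 were found by gene ID among the 61852 genes of the deposited tables. RNA came from the human cell line H1299, which was established from a non-small-cell lung carcinoma and carries the labelled genotype p53-/-. In 2 libraries the cells expressed CASM34, and in 2 they expressed wild-type p53 (p53WT). The series' design text calls CASM34 a mutant of p53, and the series title names synonymous mutations found in cancer. Both groups share the p53-/- background and the same medium, and the labels give no further treatment. The sources used here do not say how the p53 forms were introduced, which promoter drove them or whether the cells were cloned, and no library without p53 was analysed here. The question is how the antioxidant genes of CASM34 cells differed from those of p53WT cells.

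NRF2, encoded by NFE2L2, is a transcription factor that KEAP1 holds in the cytoplasm and passes to a CUL3 ubiquitin ligase. Oxidants and electrophiles modify KEAP1, and NRF2 then enters the nucleus, pairs with small MAF proteins and binds antioxidant response elements of its target genes. The targets make and recycle glutathione and thioredoxin, supply NADPH, conjugate and export electrophiles and store iron. p53 also acts on redox genes: TP53I3 and OSGIN1 are among those named as p53-responsive, and NRF2 activity is often raised in lung cancer.

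The libraries held 26906095 and 18086983 counts for CASM34 and 21717726 and 25969760 for p53WT, so the shallowest was CASM34 replicate 2. The labels do not say that the 2 libraries of a group came from separate cultures, so the p-values are measured against a spread among libraries that may be technical. In bulk RNA, fewer cells expressing a gene and less of its RNA per cell cannot be told apart. Of the 4 markers chosen for a lung carcinoma line, KRT8, KRT18 and VIM had 9797 counts or more in every library, while EPCAM had 2 and 1 counts in CASM34 and 3 and 8 in p53WT. The leukocyte markers PTPRC and CD3E had no counts, and 4 leukocyte markers summed to 0.110 to 0.487 CPM (counts scaled to a common library size) in CASM34 and 0.138 to 0.232 CPM in p53WT. The 4 fibroblast and endothelial markers summed to 3.22 to 3.78 CPM in CASM34 and 2.95 to 3.29 CPM in p53WT.

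The core of the antioxidant response element was searched in RefSeq promoter windows (GRCh38.p14, 250 bases before to 50 after a gene's start) as TGACNNNGC on both strands, where N is any base. Windows were given for 30 of the 39 members. The core was found for 9 of these 30 genes (30%) and for 16.1% of all 27305 genes with a window. By window the shares were 23.8% of the members' 42 windows and 13.3% of all 35116. A match is a description of the letters and not evidence of binding. The stretches below are those upstream of the start in 6 members tested for expression, written along the gene's own strand with the 9 letters of the match in capitals. Where the match is on the other strand it reads GCNNNGTCA.
GSTP1 (chr11:67583736-67583764, plus strand): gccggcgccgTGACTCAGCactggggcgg
ME1 (chr6:83431170-83431198, minus strand): tctcctgccaTGACTCAGCgcttctcgca
TXNRD1, first start (chr12:104215670-104215698, plus strand): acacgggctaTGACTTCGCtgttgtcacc
TXNRD1, second start (chr12:104286920-104286948, plus strand): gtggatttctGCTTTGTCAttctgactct
GCLM (chr1:93909446-93909474, minus strand): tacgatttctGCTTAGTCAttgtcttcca
PGD (chr1:10398853-10398881, plus strand): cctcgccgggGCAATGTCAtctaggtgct
KEAP1, upstream match (chr19:10502807-10502835, minus strand): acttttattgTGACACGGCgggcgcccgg
KEAP1, downstream match (chr19:10502784-10502812, minus strand): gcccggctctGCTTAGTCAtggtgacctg
GSTP1 and ME1 share the same 9 letters in this orientation, and GCLM and the downstream KEAP1 match share theirs in the other. The remaining members with a match were GPX2, whose expression was not tested, and TP53I3 and MGST1, whose matches lie after the start. ME1 has a further match after the start, and TXNRD1 has one that touches the start.

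Across the 39 genes the levels were much the same in both groups, and few genes changed. Of the 39, 33 were high enough to test with edgeR's quasi-likelihood test over 15965 genes, and 2 of these 33 (6.06%) rose in CASM34, HMOX1 and TP53I3. Among all genes tested 1.61% rose and 0.345% fell, 1.95% in either direction, so the difference in share rests on 2 genes. None of the members fell by this test. At an unadjusted edgeR p under 0.05, 4 members were higher and 3 lower, 21.2% of the 33 beside 17.1% of all genes tested. DESeq2 called 1 fall, PRDX1, and 0 rises, where 0.561% of all its genes fell and 1.36% rose (1.92% in all). With limma on log2(TPM + 1) there were 0 calls among the members and 0 among all genes (0%). The median log2 fold change (CASM34 over p53WT) was -0.023 for the 33 and -0.00055 for all genes tested. The median size of the change, regardless of sign, was 0.085 for the members and 0.105 for all genes.

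More members were low than high in CASM34, by small amounts. Of the 33, 10 lay above 0 and 23 below 0 on the fitted log2 scale, while 49.8% of all genes tested lay above 0. In CPM the 2 CASM34 libraries lay above both p53WT libraries for 7 members and below both for 13, and for the other 13 the groups overlapped. Groups that did not overlap made up 60.6% of the members and 47.9% of all genes tested. For the lower direction alone the shares were 39.4% and 23.4%, and for the higher direction 21.2% and 24.5%. These shares are descriptions, with no test of the list.

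**Figure D1:**
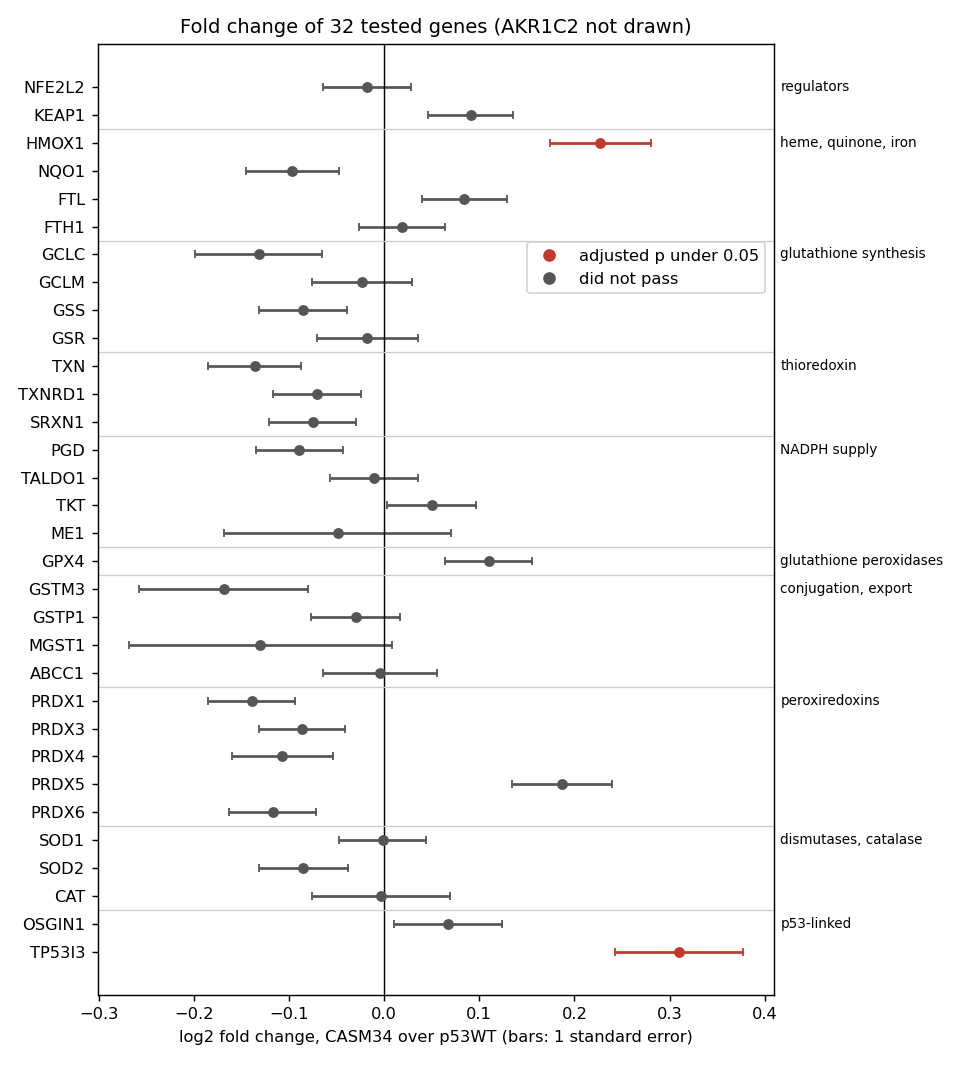
Log2 fold change of CASM34 over p53WT (x axis) for 32 of the 33 tested genes, grouped by role; bars are 1 standard error of the edgeR fit, and AKR1C2 (0.99, SE 0.51) is not drawn. HMOX1 at 0.23 and TP53I3 at 0.31, in red, are those with an adjusted p under 0.05, and the other 30 lie between -0.17 and 0.19.

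In abundance, the members spanned a wide range, down to a gene with no reads. Levels between genes are compared in TPM, a unit per transcript length. The 39 genes together held 0.808% and 0.807% of all TPM in CASM34 and 0.804% and 0.814% in p53WT. The ferritin light chain FTL was highest in every library, at 1455 and 1479 TPM in CASM34 and 1394 and 1389 TPM in p53WT. It stood clear of PRDX1 and FTH1, whose ranges overlapped each other (1029 to 1158 and 1015 to 1137 TPM over the 4 libraries). The counts of PRDX1 and FTH1 were fractional in every library, so these levels are uncertain. GSTP1 (595 to 624 TPM) and GPX4 (556 to 615 TPM) came next and also overlapped. In each library 17 members reached 100 TPM and 7 lay under 1.2 TPM. The least abundant of the other 32 was the malic enzyme gene ME1, at 3.62 to 3.95 TPM, so a gap separated the expressed members from the rest.

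**Figure D2:**
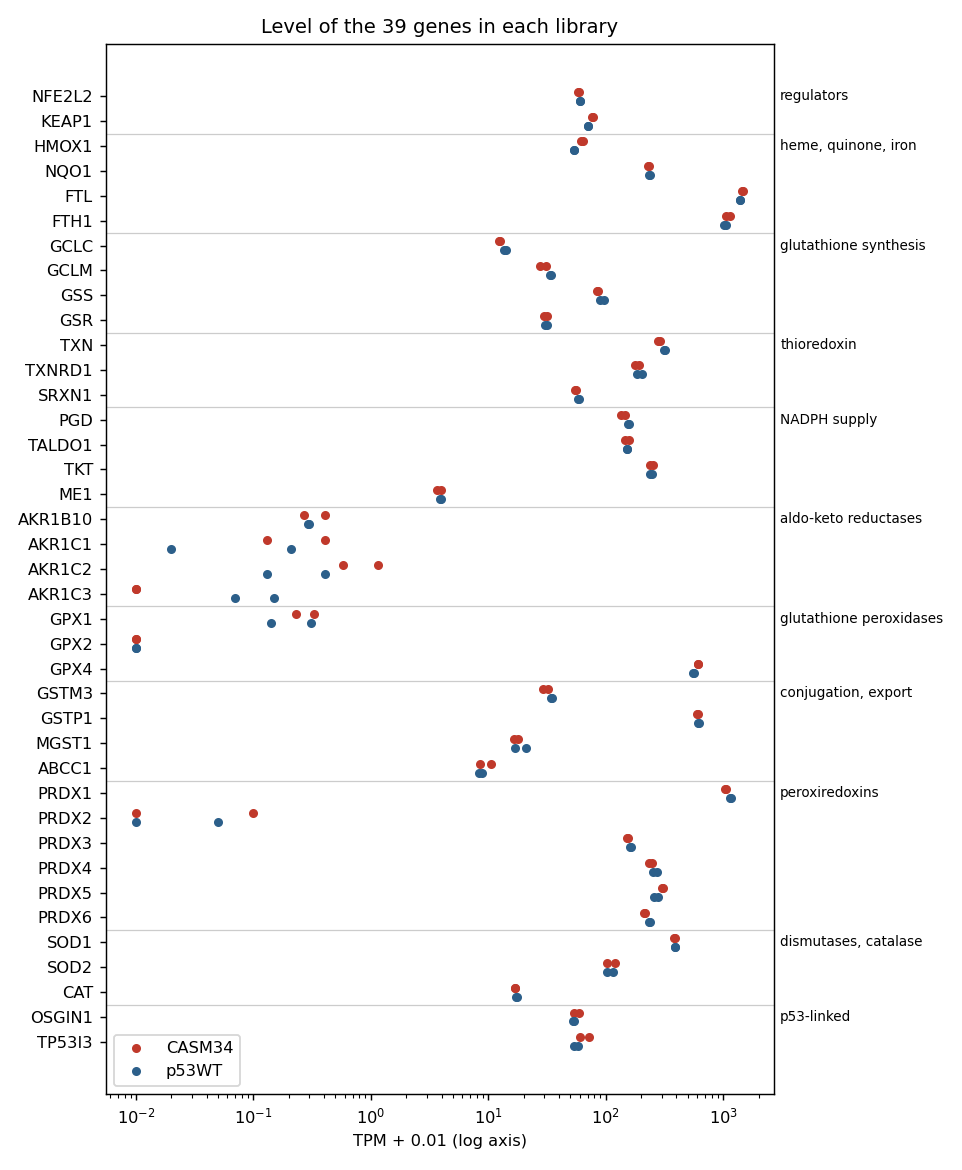
TPM plus 0.01 on a log axis (x) for each of the 39 genes in each library, CASM34 in red above p53WT in blue, grouped by role. FTL is highest at 1389 to 1479 TPM, and 7 genes lie under 1.2 TPM in all 4 libraries.

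The regulators of the pathway were both expressed and did not pass the test. NFE2L2 (ENSG00000116044.17, GRCh38 chromosome 2, 177227595 to 177392697, minus strand, GENCODE 29) had 112 and 108 CPM in CASM34, against 110 and 113 CPM in p53WT. The groups overlapped, with a log2 change of -0.018 (SE 0.046, edgeR adjusted p = 0.886). Its counts were fractional in all 4 libraries and AGPS overlaps it on the other strand, so its level is uncertain. KEAP1 (ENSG00000079999.14, chromosome 19, 10486120 to 10503741, minus strand) had 140 and 141 CPM in CASM34, against 131 and 133 CPM in p53WT. Both CASM34 libraries were the higher ones, but the log2 change of 0.091 (SE 0.045, edgeR adjusted p = 0.325) did not pass. It turned to -0.084 with an offset for GC content and length. The ratio of KEAP1 to NFE2L2 in TPM, singled out after the values were seen, was 1.31 and 1.30 in CASM34 and 1.17 and 1.17 in p53WT. With the offset for GC content and length, NFE2L2 lay at 0.026, so the change of KEAP1 was then below that of NFE2L2. KEAP1 has 61.3% GC and NFE2L2 42.9%, and a link of this ratio to the libraries' difference in GC, given below, was not tested.

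HMOX1, which encodes the heme-degrading enzyme heme oxygenase-1, was the NRF2 target that rose. HMOX1 (ENSG00000100292.18, chromosome 22, 35380361 to 35394214, plus strand) had 65.6 and 63.1 CPM in CASM34, against 54.9 and 55.2 CPM in p53WT. The CASM34 values were both above the p53WT ones and further apart from each other than those were. The mean was 64.4 ± 1.75 CPM in CASM34 and 55.1 ± 0.260 CPM in p53WT (SD, n = 2 each). The fitted level was 17.1% higher in CASM34, a log2 change of 0.23 (SE 0.053, edgeR adjusted p = 0.0477). A fit without 1 library leaves 1 library in a group, so its spread comes from the other group's pair. In such fits HMOX1 did not pass without CASM34 replicate 1, p53WT replicate 1 or p53WT replicate 2, at log2 changes of 0.20 to 0.23. Under the offset for GC and length it lay at 0.089 (edgeR adjusted p = 0.470).

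The other genes of heme, quinone and iron handling did not pass. NQO1, a quinone reductase often used as a readout of NRF2, had 173 and 181 CPM in CASM34, against 183 and 195 CPM in p53WT. Both CASM34 libraries were the lower ones, with a log2 change of -0.096 (SE 0.049, edgeR adjusted p = 0.344). NQO1 lay at -0.15 without p53WT replicate 1 and at -0.047 without p53WT replicate 2. FTL had a log2 change of 0.084 (SE 0.045, edgeR adjusted p = 0.362), with both CASM34 libraries above p53WT. Its partner FTH1, the ferritin heavy chain, lay at 0.019 (SE 0.045, edgeR adjusted p = 0.873), and its groups overlapped. The ratio of FTL to FTH1 in TPM was 1.28 and 1.40 in CASM34 and 1.37 and 1.32 in p53WT, with no separation of the groups. The counts of NQO1 and FTH1 were fractional in all 4 libraries, so their levels and this ratio are uncertain.

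Of the 4 genes that make or regenerate glutathione, none passed and all lay below 0 in the main fit. The signs of GCLM and GSR turned in some of the alternatives. GCLC and GCLM encode the catalytic and the modifier subunit of glutamate-cysteine ligase, the first step of the synthesis. GCLC had 33.6 and 32.7 CPM in CASM34, against 37.6 and 35.1 CPM in p53WT, a log2 change of -0.13 (SE 0.067, edgeR adjusted p = 0.342). GCLM, with 85.9 and 92.2 CPM in CASM34 and 92.5 and 88.3 CPM in p53WT, overlapped between groups (-0.023, SE 0.052, edgeR adjusted p = 0.865). Its effective length differed between libraries, at 3700 and 3544 bases in CASM34 and 3294 and 3070 bases in p53WT. On the TPM scale, which divides by that length, GCLM was therefore 27.4 and 30.8 in CASM34 and 33.7 and 33.9 in p53WT, with groups apart. GCLM lay at -0.22 with an offset for effective length (SE 0.072, edgeR adjusted p = 0.350). With limma on log2(TPM + 1) it lay at -0.21, and it passed in neither fit. Glutathione synthetase GSS lay at -0.085 and glutathione reductase GSR at -0.017 (edgeR adjusted p = 0.377 and 0.906).

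The 3 thioredoxin genes among the members all lay below 0, and none was called. TXN encodes thioredoxin, a small disulfide reductase. It had 102 and 107 CPM in CASM34, against 112 and 117 CPM in p53WT. Both CASM34 libraries were lower, with a log2 change of -0.14 (SE 0.049, edgeR adjusted p = 0.173), which was -0.0079 with the GC and length offset. Thioredoxin reductase TXNRD1 lay at -0.071 (SE 0.046, edgeR adjusted p = 0.473). SRXN1, the sulfiredoxin that repairs overoxidised peroxiredoxins, lay at -0.075 (SE 0.046, edgeR adjusted p = 0.439). For both the CASM34 libraries lay below the p53WT ones in CPM. In TPM the groups of TXNRD1 overlapped, at 193 and 179 in CASM34 and 205 and 183 in p53WT.

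The 4 genes for NADPH supply did not pass either. PGD, of the oxidative pentose phosphate pathway, was lower in both CASM34 libraries, at 220 and 217 CPM in CASM34 and 238 and 227 CPM in p53WT (log2 fold change -0.089, SE 0.046, edgeR adjusted p = 0.348). The non-oxidative enzymes TALDO1 and TKT lay at -0.011 and 0.050 and overlapped between groups (edgeR adjusted p = 0.931 and 0.636). ME1, which makes NADPH from malate, lay at -0.049 with the wider error of a gene near 10 CPM (SE 0.119, edgeR adjusted p = 0.876).

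The 4 aldo-keto reductases among the members, which reduce carbonyls and are strongly induced by NRF2 in many human cells, were barely detected. Outside the members, AKR1B1 had mean levels of 183 TPM in CASM34 and 173 TPM in p53WT. AKR1A1 had means of 42.8 TPM in CASM34 and 45.7 TPM in p53WT. AKR1C2 (ENSG00000151632.18, chromosome 10, 4987400 to 5018031, minus strand) had 19 and 15 counts in CASM34, against 11 and 7 counts in p53WT. AKR1C1 had 6 and 3 counts in CASM34 and 5 and 1 in p53WT, and AKR1C3 had 0 in both CASM34 libraries and 1 and 2 in p53WT. AKR1B10 had 4 and 7 counts in CASM34 and 7 and 2 in p53WT. Of the 4 members only AKR1C2 was high enough to test, and it did not pass (log2 fold change 0.99, SE 0.51, edgeR adjusted p = 0.353). AKR1C2 lay at 1.47 without p53WT replicate 1, at 0.58 without p53WT replicate 2 and at 1.78 with an offset for effective length.

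AKR1C genes are close copies of each other, so counting can divide reads among them, although the counts of AKR1C1, AKR1C2 and AKR1C3 were whole in all 4 libraries. Summed over AKR1C1 to AKR1C4 the counts were 25 and 18 in CASM34 and 17 and 10 in p53WT. The sum had a log2 fold change of 0.73 and did not pass (edgeR adjusted p = 0.449). It lay at 1.29 without p53WT replicate 1 and at 0.29 without p53WT replicate 2, so its size depended on which p53WT library was kept.

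Of the 3 glutathione peroxidases among the members, which reduce peroxides with glutathione, GPX4 was expressed. Outside the members, GPX8 had means of 50.8 CPM in CASM34 and 57.4 CPM in p53WT. GPX8 lay at -0.17 and the scarcer GPX3 at 0.24, and neither passed (edgeR adjusted p = 0.153 and 0.675). GPX4 protects membranes from lipid peroxidation and had 251 and 255 CPM in CASM34, against 229 and 240 CPM in p53WT. Both CASM34 libraries were higher, but the log2 change of 0.11 (SE 0.046, edgeR adjusted p = 0.238) did not pass, and it lay at -0.060 under the offset for GC and length. GPX1, the cytosolic enzyme found in most tissues and typed as a polymorphic pseudogene in GENCODE 29, was listed at 3 and 2 counts in CASM34 and 2 and 4 in p53WT. GPX2, known mainly from the gut, had 0 counts in all 4 libraries. A count of 0 allows up to 0.111 and 0.166 CPM in CASM34 and 0.138 and 0.116 CPM in p53WT (3 counts per library, for counting error only).

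The 4 conjugation and export genes among the members were all below 0 in the main fit, and none was called. The signs of GSTP1, MGST1 and ABCC1 turned in some of the alternatives. GSTP1, which couples glutathione to electrophiles, had 226 and 221 CPM in CASM34 and 222 and 234 CPM in p53WT, with overlap (log2 fold change -0.030, SE 0.047, edgeR adjusted p = 0.795). Under the offset for GC and length GSTP1 lay at -0.17 (edgeR adjusted p = 0.0995). GSTM3, another glutathione transferase, lay at -0.17 (SE 0.089, edgeR adjusted p = 0.357), the lowest value among the members in the main fit. It had 20.3 and 23.3 CPM in CASM34 and 25.0 and 23.7 CPM in p53WT. The groups of GSTM3 did not overlap, but CASM34 replicate 2 and p53WT replicate 2 lay close together. It lay at -0.065 without CASM34 replicate 1, when it was no longer the lowest member, and at -0.26 without CASM34 replicate 2. The microsomal transferase MGST1 lay at -0.13 (SE 0.138, edgeR adjusted p = 0.684) and turned to 0.052 without p53WT replicate 2. ABCC1, a pump for glutathione conjugates, lay at -0.0039 (SE 0.060, edgeR adjusted p = 0.982).

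The peroxiredoxins, which break down hydrogen peroxide through a reactive cysteine, included the members with the smallest p-values after those that rose. PRDX5, found in mitochondria, peroxisomes and cytosol, had 128 and 130 CPM in CASM34, against 108 and 119 CPM in p53WT. It was higher in both CASM34 libraries, and the p53WT libraries differed from each other more than the CASM34 ones. The log2 change of 0.19 (SE 0.053, edgeR adjusted p = 0.0895) did not pass, and it was 0.066 with the GC and length offset and 0.11 without p53WT replicate 1. With no filter on low counts PRDX5 passed (edgeR adjusted p = 0.0351), which made 3 members that rose. PRDX1, the cytosolic form, had 564 and 572 CPM in CASM34, against 614 and 637 CPM in p53WT. It was lower in both CASM34 libraries, with a log2 change of -0.14 (SE 0.045, edgeR adjusted p = 0.137), and DESeq2 called it (adjusted p = 0.0268). Its counts were fractional in all 4 libraries, so its level is uncertain.

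PRDX6, the member with a single reactive cysteine, had 214 and 204 CPM in CASM34, against 228 and 226 CPM in p53WT, a log2 change of -0.12 (SE 0.046, edgeR adjusted p = 0.209). PRDX4, of the endoplasmic reticulum, had 130 and 137 CPM in CASM34, against 137 and 150 CPM in p53WT (-0.11, SE 0.054, edgeR adjusted p = 0.334). CASM34 replicate 2 and p53WT replicate 1 were level for PRDX4, so its groups barely separated. PRDX4 lay at -0.18 without p53WT replicate 1 and at -0.034 without p53WT replicate 2. The mitochondrial PRDX3 lay at -0.086 (SE 0.045, edgeR adjusted p = 0.358). Of the 5 tested peroxiredoxins, PRDX5 was thus the one above 0 and the other 4 lay between -0.14 and -0.086. The ratio of PRDX5 to PRDX1 in TPM, singled out after the values were seen, was 0.294 and 0.290 in CASM34 and 0.226 and 0.240 in p53WT. PRDX5 has 60.8% GC and PRDX1 49.1%, and a link of this ratio to the libraries' difference in GC, given below, was not tested.

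PRDX2, a cytosolic peroxiredoxin of most tissues, was listed at 1 and 0 counts in CASM34 and 1 and 0 in p53WT. HOOK2, which overlaps PRDX2 on the same strand of chromosome 19, had 340 and 251 counts in CASM34 and 226 and 267 in p53WT. THSD8, 172 bases away, had 4 and 1 counts in CASM34 and 0 and 4 in p53WT. The next genes were farther off and had more reads. JUNB, 3505 bases away, had 2603 and 1683 counts in CASM34 and 1720 and 2214 in p53WT. RNASEH2A, 4697 bases away, had 2647 and 1788 counts in CASM34 and 2120 and 2656 in p53WT. The nearest neighbour of GPX1 was RHOA, 545 bases away on chromosome 3, with 13472 and 9217 counts in CASM34 and 11139 and 13459 in p53WT. Whether the low counts of PRDX2 and GPX1 reflect the RNA of these cells or the assignment of reads was not tested.

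Superoxide dismutases and catalase showed no change that passed. SOD1, the cytosolic dismutase, had 194 and 196 CPM in CASM34 and 192 and 199 CPM in p53WT, with full overlap (log2 fold change -0.0016, SE 0.045, edgeR adjusted p = 0.990). SOD2, the mitochondrial dismutase, lay at -0.085 (SE 0.047, edgeR adjusted p = 0.381), with 132 and 133 CPM in CASM34 and 144 and 137 CPM in p53WT. It had fractional counts in all 4 libraries and is overlapped on the other strand by WTAP, so its level is uncertain. Catalase, CAT, lay at -0.0031 (SE 0.073, edgeR adjusted p = 0.989).

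TP53I3, an oxidoreductase gene first found as p53-induced, had the larger of the rises called. TP53I3 (ENSG00000115129.14, chromosome 2, 24077433 to 24085861, minus strand) had 59.5 and 67.7 CPM in CASM34, against 49.3 and 52.6 CPM in p53WT. The groups did not overlap, and CASM34 replicate 2 was the highest. FAM228B, which overlaps it on the other strand, had a mean of 31 counts. The mean was 63.6 ± 5.81 CPM in CASM34 and 51.0 ± 2.33 CPM in p53WT (SD, n = 2 each). The fitted level was 24.0% higher in CASM34, a log2 change of 0.31 (SE 0.067, edgeR adjusted p = 0.0352). It did not pass without p53WT replicate 1 (0.26) or without p53WT replicate 2 (0.36), where the spread came from the CASM34 pair. Under the offset for GC and length it lay at 0.23 (edgeR adjusted p = 0.170). OSGIN1, an oxidative stress gene linked to both NRF2 and p53, had 71.7 and 65.3 CPM in CASM34 and 66.1 and 65.1 CPM in p53WT. Its groups overlapped and it did not pass (0.067, SE 0.057, edgeR adjusted p = 0.598).

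**Figure D3:**
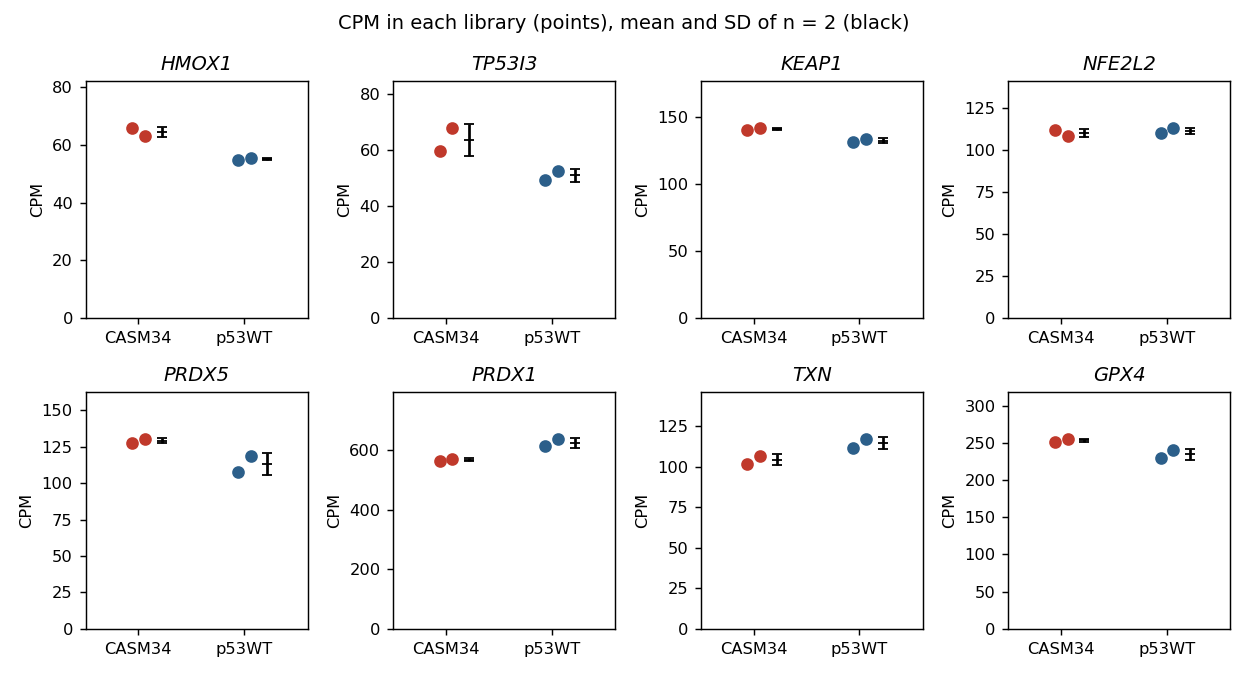
CPM (y axis, from 0) in each library for 8 genes, CASM34 left in red and p53WT right in blue, with the mean and SD of n = 2 in black. HMOX1, TP53I3, KEAP1, PRDX5 and GPX4 are higher in both CASM34 libraries, PRDX1 and TXN are lower in both, and NFE2L2 overlaps; HMOX1 and TP53I3 passed the test.

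Beside these fold changes stands a difference between the libraries in GC content. Per 10 percentage points of transcript GC, a library's log2(CPM + 0.1) relative to the mean of the 4 libraries changed, over all genes tested, by 0.073 and 0.041 in CASM34 and by -0.057 and -0.056 in p53WT. Among the 17 tested members above the median GC of all genes (49.5%), 9 had a log2 fold change above 0, with a median of 0.019. Among the 16 at or under it 1 did, AKR1C2, with a median of -0.091. The same split of all genes tested gave 69.6% above 0 among GC-rich genes and 30.0% among the rest. HMOX1 had a GC content of 60.2%, PRDX5 of 60.8%, GPX4 of 63.2% and TP53I3 of 56.9%, while TXN had 38.4% and PRDX1 49.1%. Over the 33 members, which share the same 4 libraries, the Spearman correlation of log2 fold change with GC content was 0.59 (0.47 over all genes tested). With the GC and length offset edgeR called 0 members, against 0.232% of all genes tested, and 6 members had an unadjusted p under 0.05. Of these 6, TP53I3 was higher in CASM34 and GSTP1, GSS, PGD, SRXN1 and PRDX1 were lower. The offset moved GSTP1 (-0.17), GSS (-0.14), PGD (-0.14) and SRXN1 (-0.13) farther below 0, and brought PRDX1 to -0.11. The smallest edgeR adjusted p among the 6 was 0.0995, for GSTP1. The members' median was then -0.047, against -0.019 for all genes.

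**Figure D4:**
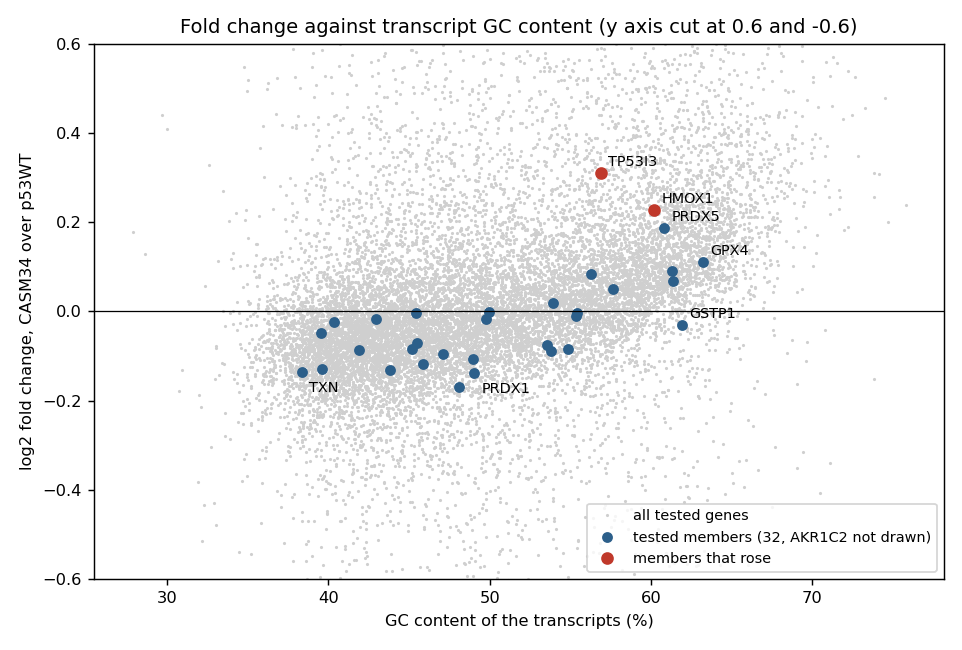
Log2 fold change (y axis, cut at 0.6 and -0.6) against transcript GC content in percent (x axis) for all tested genes in grey and for 32 tested members in blue or, where they rose, in red; AKR1C2 is not drawn. HMOX1 (60.2% GC) and TP53I3 (56.9%) lie on the GC-rich side with GPX4 and PRDX5, and GSTP1, at 62.0% GC, lies below 0.

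Members with and without a match to the antioxidant response core had fold changes in overlapping ranges, and the difference was not tested. The 8 tested members with a match had log2 fold changes from -0.13 to 0.31 with a median of -0.039, and 2 of them were above 0, KEAP1 and TP53I3. The 17 tested members with a window and no match ranged from -0.17 to 0.99 with a median of -0.018. The windows reach only 250 bases before to 50 after the start, so these 17 may have elements outside them. The split is therefore not one of genes with and without such an element. For HMOX1 no window was used here.

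The share of wider pathway genes that rose was close to that of all genes. Of 70 further genes for NRF2 control, NRF2 targets, glutathione, thioredoxin and p53-linked redox functions, 63 were tested, 1 rose and 62 did not pass, beside 1.61% of all genes tested that rose. None fell by edgeR, DESeq2 or limma, and at an unadjusted edgeR p under 0.05 8 of the 63 were higher and 5 lower, beside 17.1% of all genes tested in either direction. The gene that rose was FDXR, a mitochondrial ferredoxin reductase and p53 target, with 2402 and 1696 counts in CASM34 and 1407 and 1756 in p53WT. Per scaled library it had 89.9 and 92.9 CPM in CASM34, against 64.8 and 68.0 CPM in p53WT, and the groups stood well apart (0.46, SE 0.051, edgeR adjusted p = 0.00171). FDXR did not pass with offsets for effective length (edgeR adjusted p = 0.182) or for GC content and length (edgeR adjusted p = 0.0638), nor with limma (adjusted p = 0.497). MAFK, a small MAF partner of NRF2, lay at 0.20 (SE 0.053, edgeR adjusted p = 0.0710), with 2189 and 1390 counts in CASM34 and 1483 and 1794 in p53WT, and lay at -0.046 under the offset for GC and length. ANPEP, an aminopeptidase that acts on products of glutathione breakdown, lay at 0.16 (SE 0.045, edgeR adjusted p = 0.0874), with 3400 and 2278 counts in CASM34 and 2460 and 2900 in p53WT.

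By list, the 8 NRF2 regulators had a median log2 fold change of 0.052, with 5 of 8 above 0 and none called. The 21 tested NRF2 targets outside the members had a median of -0.0026, with 10 above and 11 below 0. The 26 tested glutathione and thioredoxin genes had a median of 0.014, with 15 above 0. The 8 p53-linked antioxidant genes had a median of 0.13, with 5 above 0 and FDXR called. In this list SESN1 lay at 0.053, SESN2 at 0.20 and SESN3 at -0.33, and none passed (edgeR adjusted p = 0.808, 0.114 and 0.271). TP53INP1 lay at 0.24 and did not pass either (edgeR adjusted p = 0.0877). The sestrins and TP53INP1 were singled out after their values were seen.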

How the data were processed

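Poly(A) RNA was sequenced in 4 libraries, 2 of CASM34 and 2 of p53WT cells, grouped by the labels. The submitters' processing notes name GRCh38 as the build and RSEM, STAR and Trim Galore as tools; the sources used here give no versions, annotation release or strand setting. Per the file headers, the deposited values are RSEM expected counts, effective lengths and TPM of 61852 genes; FPKM was not used. The expected counts, of which 8.63% to 9.26% per library were not whole (tolerance 0.001), were rounded. The TPM values were scaled by the authors' RSEM run to a fixed total per library, per the file headers.

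Symbols were matched by gene ID (61803 of 61852); SOD2 was named from GENCODE 29, which also gave coordinates (GRCh38, 1-based) and transcript GC content. The main test was edgeR 4.0.16 in R 4.3.3 (quasi-likelihood F test with group alone in the model, TMM scaling, genes kept by filterByExpr at minimum count 10), with Benjamini-Hochberg adjustment over 15965 genes and a threshold of 0.05. CPM values use TMM-scaled library sizes. A standard error is the absolute log2 change over the root of the F statistic. Alternatives were other scalings, no filter, DESeq2 1.42.0, limma 3.58.1 on log2(TPM + 1) with a mean TPM of at least 1, offsets for effective length or for GC content and length (natural splines, 5 degrees of freedom; 270 tested genes without a GC value were given the median), a replicate block and leaving out each library. Leaving out a library left 1 library in its group, so the spread, and with it the calls, then rested on the other group's pair. Scripts were tested on simulated counts. Counts within a group differed by more than counting error (chi-square per degree of freedom 3.94 in CASM34 and 3.90 in p53WT), so each library was counted as 1 sample; this does not show that they came from separate cultures.

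The members, the gene lists and the alternatives were chosen with earlier results of these data known. The text names all 39 members by role. It gives values in every library for those that passed, the regulators, the AKR1C genes and the next 6 by unadjusted p, and from the wider lists the genes that passed, up to 3 by p. The transcript of the expressed p53 is not reported here.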

Additional observations from a re-analysis of the deposited data

How the results depend on the processing

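Over all genes, 257 rose and 55 fell. With DESeq2 138 rose, with library-total scaling 27 fell, and with no filter on low counts 542 rose and 235 fell. The effective length offset left 3 rises and 0 falls, the GC and length offset 21 and 16, and limma on log2(TPM + 1) 0 and 0. Leaving out 1 library gave 95 to 650 rises and 14 to 269 falls. Of the members, 2 rose and 0 fell. With no filter 3 members rose. No member rose with DESeq2, library-total scaling, either offset or limma, and 1 fell with DESeq2 (PRDX1). Without 1 library 0 to 2 rose and 0 fell: 1 without CASM34 replicate 1, 2 without CASM34 replicate 2 and 0 without either p53WT library. The cause was not tested. Of the wider genes 1 rose, against 3 with no filter, 0 with either offset or limma, and 1 to 3 without 1 library; 0 fell in each. The members' median of -0.023 moved to -0.047 with the GC and length offset, -0.042 with the effective length offset, -0.040 with limma and -0.040 to -0.026 without 1 library. Median-of-ratios scaling changed no call among the members.

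The signs of 16 of the 33 tested members turned in at least 1 alternative. With the GC and length offset these lay at 0.026 (NFE2L2), -0.084 (KEAP1), 0.033 (GCLM), -0.050 (TKT), 0.015 (ME1), -0.060 (GPX4), 0.026 (SOD1), 0.030 (CAT) and -0.098 (OSGIN1), and MAFK of the wider list at -0.046. With the effective length offset and limma, ABCC1 lay at 0.16 and 0.14 and SOD2 at 0.017 and 0.021. With library totals, SOD1 lay at 0.0028 and CAT at 0.00054. Without 1 library, ranges that crossed 0 were -0.032 to 0.019 (ABCC1), -0.026 to 0.014 (CAT), -0.0086 to 0.043 (FTH1), -0.073 to 0.029 (GCLM), -0.075 to 0.030 (GSR), -0.075 to 0.013 (GSTP1), -0.10 to 0.010 (ME1), -0.29 to 0.052 (MGST1), -0.040 to 0.0016 (NFE2L2), -0.0073 to 0.13 (OSGIN1), -0.033 to 0.027 (SOD1) and -0.033 to 0.0079 (TALDO1).

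The labels give both groups the same replicate numbers. They do not say that a number marks a shared culture or day, so the main fit had no block. A check added after the data were seen gave a correlation of 0.034 over 15965 genes between the groups' differences of replicate 1 from replicate 2. With a replicate block 798 genes rose and 361 fell, 3 members rose (PRDX5 added), 1 fell (PRDX1) and 6 wider genes rose. The block adds a coefficient to a fit of 4 libraries, so its spread rests on fewer degrees of freedom than in the main fit. Its calls are not counted as support for PRDX5 or PRDX1. The sum of the AKR1C genes was not run with limma or the offsets. AKR1C1 to AKR1C3, AKR1B10, GPX1, GPX2 and PRDX2 had 19 counts or fewer in every library, which limits their precision.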
